A study of Mus musculus with 12 samples.

Results

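Calf muscle of diabetic mice that received shRNA viruses against TSC22D4 and LCN13 together was set against calf muscle of mice that received the LCN13 shRNA virus with control virus. The comparison takes 6 of the 12 arrays of the study, 3 in each group, chosen by the shRNA named in their titles, and covers all genes on them. All animals were 12-week-old mice of the strain BKS.Cg-Dock7m +/+ Leprdb/J, which lack a working leptin receptor and become obese and diabetic, and gastrocnemius was taken 1 week after adenovirus. The TSC22D4+LCN13 group (animals 29, 30 and 32) received TSC22D4 shRNA virus and LCN13 shRNA virus in equal parts, without control virus. The LCN13 group (animals 21, 22 and 23) received LCN13 shRNA virus and control shRNA virus in equal parts. The other arrays hold a TSC22D4 group (animals 25, 26 and 27), given TSC22D4 and control virus in equal parts, and a control group (animals 18, 19 and 20), given control virus alone. The total virus dose was the same in every group, so the groups compared differ in TSC22D4 shRNA virus given in place of control shRNA virus, with LCN13 shRNA virus in both. An effect of adding TSC22D4 shRNA and one of removing the control shRNA virus cannot be told apart. Of 7 mice treated per group, 3 that the submitters describe as representative went onto arrays, so the p-values measure the spread between these chosen animals. Which tissues the virus reached was not given in the sources used here.

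TSC22D4 is a leucine zipper protein of the TSC22 family and acts as a transcriptional regulator. LCN13 is a secreted lipocalin, a class of small carriers of lipophilic ligands, and has been linked to insulin sensitivity in mice. Muscle of db/db mice takes up little glucose in response to insulin, and the comparison asks which muscle transcripts follow TSC22D4 shRNA once LCN13 shRNA is present. Interferons act on most cells through STAT transcription factors. Type I interferons use chiefly the interferon-stimulated response element, which drives antiviral genes such as the IFIT and OAS families, while interferon gamma uses chiefly the gamma-activated site and induces guanylate binding proteins (GBPs), immunity-related GTPases (IRGs) and the immunoproteasome. The response classes overlap, and many promoters of the GBP and IRG genes hold both elements.

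Tissue and targets were checked first. Fast fibre genes averaged 13.33, 13.28 and 13.35 on the log2 scale in the TSC22D4+LCN13 arrays, against 13.32, 13.31 and 13.31 in the LCN13 arrays, which are among the brightest levels on the array. Tsc22d4 measured 7.01, 6.72 and 6.71 in the TSC22D4+LCN13 arrays and 6.81, 7.00 and 6.62 in the LCN13 arrays. The groups overlapped, and the log2 difference was 0.00 (SE 0.121, limma adjusted p = 0.997). Obp2a, as the gene for LCN13 is now called, lay at 4.91 to 4.96 in TSC22D4+LCN13 arrays and at 4.90 to 4.93 in LCN13 arrays, close to the lowest value of any probe set, 4.78. A lower Tsc22d4 level was therefore not seen in this muscle, and the level of Obp2a was too near the floor to assess. The groups are named by their labels throughout. On the second principal component of all genes (21.4% of variance), TSC22D4+LCN13 animal 30 lay at -6.71, apart from animals 29 and 32 of its group at 11.45 and 9.77, with the LCN13 animals between -13.52 and -10.93.

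The TSC22D4+LCN13 muscle had 305 genes higher and 672 genes lower than LCN13 muscle among 23185 named genes, a total of 977 or 4.21% of the genes tested (limma over all 12 arrays, Benjamini-Hochberg adjusted p below 0.05). The share called higher was 1.32% and the share called lower 2.9%. Most changes were small. The median rise was 0.31 and the median fall -0.28 on the log2 scale, and 251 rises and 605 falls were under 0.5. A difference of at least 1 was reached by 8 rises (0.0345% of genes) and 4 falls (0.0173%). In all 977 genes the 3 arrays of one group lay outside the range of the 3 arrays of the other, as they did for 22.6% of all genes (9.14% higher, 13.4% lower). These calls rest on the spread estimated from all 4 groups. Limma on the 6 compared arrays alone called 0 genes, with a smallest adjusted p of 0.0715, while 3833 genes (16.5%) had an unadjusted p below 0.05, among them all 977.

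Igtp, Gbp2 and Irgm2, of the GBP and IRG families, were higher in TSC22D4+LCN13 muscle. GTPases of these families serve the cell's own defence, and some of them coat and break up vacuoles that hold intracellular microbes. Igtp, an IRG, measured 9.09, 9.28 and 8.67 in TSC22D4+LCN13 arrays and 7.96, 7.68 and 7.73 in LCN13 arrays. Every TSC22D4+LCN13 array stood above every LCN13 array, and Igtp rose 2.34-fold (log2 difference 1.23, SE 0.209, adjusted p = 0.0168). Gbp2 measured 8.28, 8.48 and 8.03 in TSC22D4+LCN13 arrays and 7.32, 7.29 and 7.16 in LCN13 arrays. These groups did not overlap either, and Gbp2 rose 2.01-fold (log2 difference 1.01, SE 0.187, adjusted p = 0.0224). Irgm2, a regulator of the other IRGs, measured 7.69, 7.71 and 7.51 in TSC22D4+LCN13 arrays and 6.88, 7.00 and 6.71 in LCN13 arrays, again without overlap, and rose 1.71-fold (log2 difference 0.78, SE 0.135, adjusted p = 0.0174). These were the 3 of 12 listed GBP and IRG genes that rose, beside 1.32% of all genes called higher. The other 9 did not pass, 11 of the 12 differences were above 0, and the list median was 0.34 beside -0.00326 for all genes. Iigp1, the IRG that acts on vacuole membranes, was chosen for mention after its values were seen and just missed the threshold, with 9.69, 10.02 and 9.52 in TSC22D4+LCN13 arrays against 9.21, 9.20 and 9.26 in LCN13 arrays (log2 difference 0.52, adjusted p = 0.0543). Without animal 30 the list had 3 genes higher and 1 lower (Gbp3, log2 difference -0.43), with a median of 0.25.

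The promoters of the 3 genes that rose are shown because each holds an interferon element, in capitals: GAAA repeated after a gap of any 2 bases, the core of the interferon-stimulated response element, and in Igtp and Irgm2 also TTCNNNGAA, the core of the gamma-activated site, which lies just upstream of the other and does not overlap it. Both cores were searched on both strands, and the first reads on the reverse strand in Gbp2. The sequences are from RefSeq, build GRCm38.p6, plus strand, 250 bases before to 50 bases after the gene start, at chr11:58199306-58199605 for Igtp, chr3:142620413-142620712 for Gbp2 and chr11:58214727-58215026 for Irgm2.
Igtp: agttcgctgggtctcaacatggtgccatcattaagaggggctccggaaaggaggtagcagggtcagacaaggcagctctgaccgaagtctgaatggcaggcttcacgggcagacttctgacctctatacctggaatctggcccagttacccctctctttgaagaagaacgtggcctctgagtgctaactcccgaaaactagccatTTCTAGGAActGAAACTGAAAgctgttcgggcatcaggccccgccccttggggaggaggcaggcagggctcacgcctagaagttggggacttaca
Gbp2: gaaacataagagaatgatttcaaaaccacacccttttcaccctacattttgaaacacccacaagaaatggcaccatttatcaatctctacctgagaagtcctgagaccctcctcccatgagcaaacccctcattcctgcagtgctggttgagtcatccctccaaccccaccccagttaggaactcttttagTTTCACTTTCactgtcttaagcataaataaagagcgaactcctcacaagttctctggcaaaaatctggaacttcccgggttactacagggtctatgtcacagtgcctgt
Irgm2: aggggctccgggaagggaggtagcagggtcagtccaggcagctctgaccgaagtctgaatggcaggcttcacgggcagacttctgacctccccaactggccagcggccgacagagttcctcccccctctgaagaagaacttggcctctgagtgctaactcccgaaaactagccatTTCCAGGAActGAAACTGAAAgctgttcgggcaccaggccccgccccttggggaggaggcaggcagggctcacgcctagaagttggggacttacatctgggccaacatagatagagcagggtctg
The response element lies 34 to 25 bases upstream of the gene start in Igtp, 59 to 50 in Gbp2 and 64 to 55 in Irgm2. Igtp and Irgm2 carry the same letters there, GAAACTGAAA, and these windows resemble each other over long stretches, as do the genes, so that probes of one may read the other. The response element core was found in 7 of the 8 listed GBP and IRG genes that have a window, against 3.44% of 32851 windows. The gamma-activated core was found in 4 of the 8, against 8.3%. Listed genes were counted by a match in any of their windows and the background by single windows, so the shares differ in unit. Gbp3, Gbp5, Gbp7 and Irgm1, which did not pass, hold the response element core too. The core thus does not set apart the genes that rose. A match of letters describes the window and shows no binding.

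Psmb9, Isg20 and Ube2l6, known as interferon-induced genes, were also among the rises. Psmb9, a catalytic subunit of the immunoproteasome, measured 6.01, 5.85 and 5.95 in TSC22D4+LCN13 arrays and 5.25, 5.64 and 5.29 in LCN13 arrays. It rose 1.46-fold without overlap (adjusted p = 0.0267) and was the only 1 of 17 genes of antigen processing to pass, with a list median of 0.12 (0.04 without animal 30). Isg20, an interferon-induced exonuclease, measured 6.82, 6.51 and 6.54 in TSC22D4+LCN13 arrays against 5.46, 5.77 and 5.84 in LCN13 arrays (1.91-fold higher, adjusted p = 0.00785). Ube2l6, the enzyme that passes ISG15 on to its ligases, measured 7.99, 7.84 and 7.75 in TSC22D4+LCN13 arrays against 6.73, 7.01 and 7.18 in LCN13 arrays (1.85-fold higher, adjusted p = 0.0235). In both genes all TSC22D4+LCN13 arrays lay above all LCN13 arrays. In control arrays Psmb9 lay at 5.97 to 6.12, Isg20 at 6.51 to 6.72 and Ube2l6 at 7.92 to 8.38. For each of these genes every LCN13 array lay below every control array, and the TSC22D4+LCN13 mean was not above the control mean.

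Most antiviral genes of the type I response did not pass, and those that did moved in both directions. Of 42 listed interferon response genes 1 rose and 3 fell, beside 1.32% and 2.9% of all genes. The other 38 did not pass, and the median difference was -0.04. Without animal 30 there were 0 rises by limma and 3 falls, and the median was -0.10. The gene that rose was Dtx3l, a ubiquitin ligase that works with PARP9, at 8.04, 8.08 and 8.06 in TSC22D4+LCN13 arrays against 7.76, 7.64 and 7.41 in LCN13 arrays (log2 difference 0.45, adjusted p = 0.0455). Without animal 30 Dtx3l did not pass (log2 difference 0.44, adjusted p = 0.0732). Oasl2, of the oligoadenylate synthetase family, measured 6.61, 6.90 and 6.46 in TSC22D4+LCN13 arrays against 7.21, 7.45 and 7.44 in LCN13 arrays. It fell by 0.71 on the log2 scale without overlap (SE 0.126, adjusted p = 0.0186). Adar, which edits adenosine in double-stranded RNA, fell by 0.36 (limma adjusted p = 0.0322). Oas3, which makes the activator of RNase L, fell by 0.27 (limma adjusted p = 0.0235). Of the 12 fits that leave out 1 array, Dtx3l passed in 1, Adar in 6, Oas3 in 7 and Oasl2 in 8. Ifit1, which binds viral RNA, measured 6.73, 6.50 and 6.35 in TSC22D4+LCN13 arrays against 7.04, 7.06 and 7.54 in LCN13 arrays and did not pass (log2 difference -0.69, adjusted p = 0.0585). Each of the 3 genes that fell stood higher in every control array than in any LCN13 array, and Oasl2 lay at 8.84 to 9.24 in control arrays.

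The mean level of each list in each array showed this split. The 12 GBP and IRG genes averaged 7.79, 7.96 and 7.65 in TSC22D4+LCN13 arrays against 7.37, 7.41 and 7.36 in LCN13 arrays, with 7.71 to 8.09 in TSC22D4 arrays and up to 8.21 in control arrays. The LCN13 arrays were thus the low ones for these genes, below all 9 others. The 42 interferon response genes averaged 6.26, 6.42 and 6.27 in TSC22D4+LCN13 arrays against 6.37, 6.41 and 6.44 in LCN13 arrays, with 6.35 to 6.40 in TSC22D4 arrays and 7.19 to 7.51 in control arrays. Here the control arrays were the high ones, and the groups with 1 or both target viruses lay close together.

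**Figure D1:**
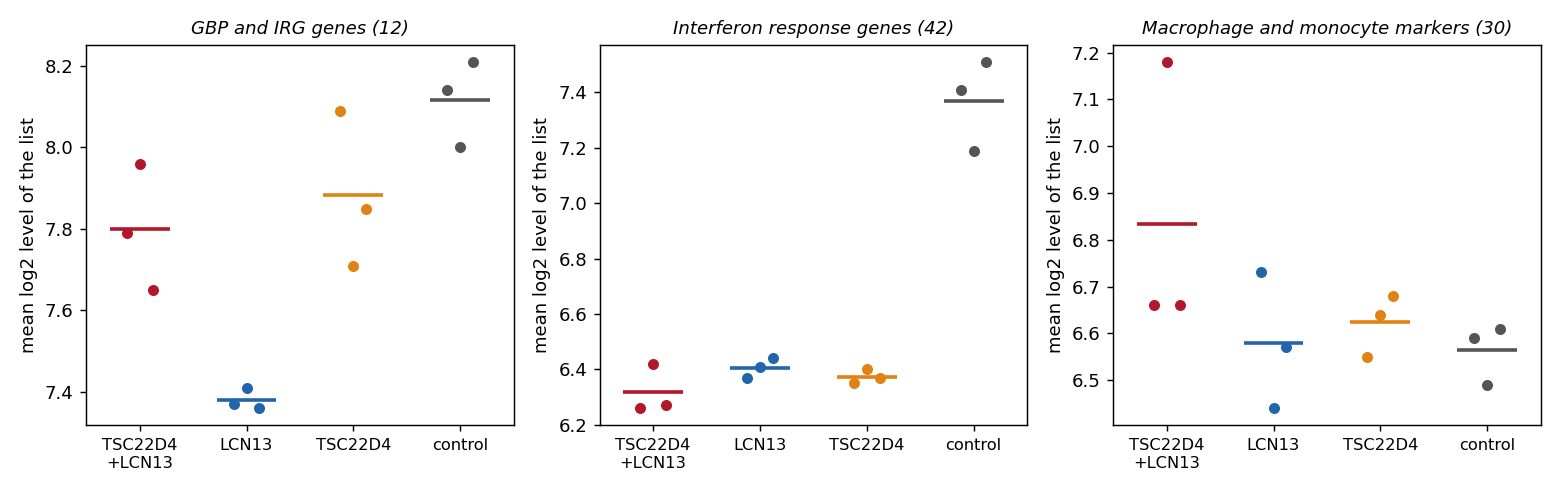
Mean log2 level of 3 gene lists in each array (points) and group (lines), in the order TSC22D4+LCN13, LCN13, TSC22D4 and control, with axes that do not start at 0. The GBP and IRG genes were lowest in the LCN13 arrays (7.36 to 7.41), the interferon response genes were highest in control arrays (7.19 to 7.51), and the macrophage and monocyte markers were highest in TSC22D4+LCN13 animal 30 (7.18).

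Genes of haem synthesis and the red cell held the largest rises. Hbb-b1, a beta chain of adult haemoglobin, measured 8.09, 6.44 and 7.04 in TSC22D4+LCN13 arrays and 5.23, 5.14 and 5.27 in LCN13 arrays. It was 3.94-fold higher (log2 difference 1.98, SE 0.397, adjusted p = 0.029), and the LCN13 arrays were all low while animal 29 was the highest. Alas2, which starts haem synthesis in red cell precursors, measured 8.23, 7.04 and 7.33 in TSC22D4+LCN13 arrays against 5.86, 5.89 and 6.15 in LCN13 arrays (2.96-fold higher, adjusted p = 0.0357). Slc4a1, the anion exchanger of the red cell membrane, rose 1.54-fold (adjusted p = 0.0268), and Slc25a37, the mitochondrial iron importer, rose 1.69-fold (adjusted p = 0.0331). The other 17 of 21 listed genes did not pass, and the list median was 0.01. Among all genes 1.32% were called higher. The red cell markers Gata1, Klf1, Rhag and Epb42 lay at 5.30 or below in the 6 arrays, near the floor. Tent5c, a poly(A) polymerase with a role in red cell and plasma cell maturation, belongs to no list and measured 8.26, 7.32 and 7.45 in TSC22D4+LCN13 arrays against 6.02, 5.99 and 6.03 in LCN13 arrays (3.17-fold higher, adjusted p = 0.0145). Animal 29 was the highest array for Hbb-b1, Alas2, Slc4a1, Slc25a37 and Tent5c. Without that animal Hbb-b1 (log2 difference 1.53, limma adjusted p = 0.0531) and Alas2 (1.22, adjusted p = 0.077) did not pass. Of the 12 fits that leave out 1 array, Alas2 passed in 5, Hbb-b1 and Slc25a37 in 7, Slc4a1 in 8 and Tent5c in 12. More blood in the sample and more transcript per cell cannot be told apart in whole muscle, and the same holds for every cell type below.

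**Figure D2:**
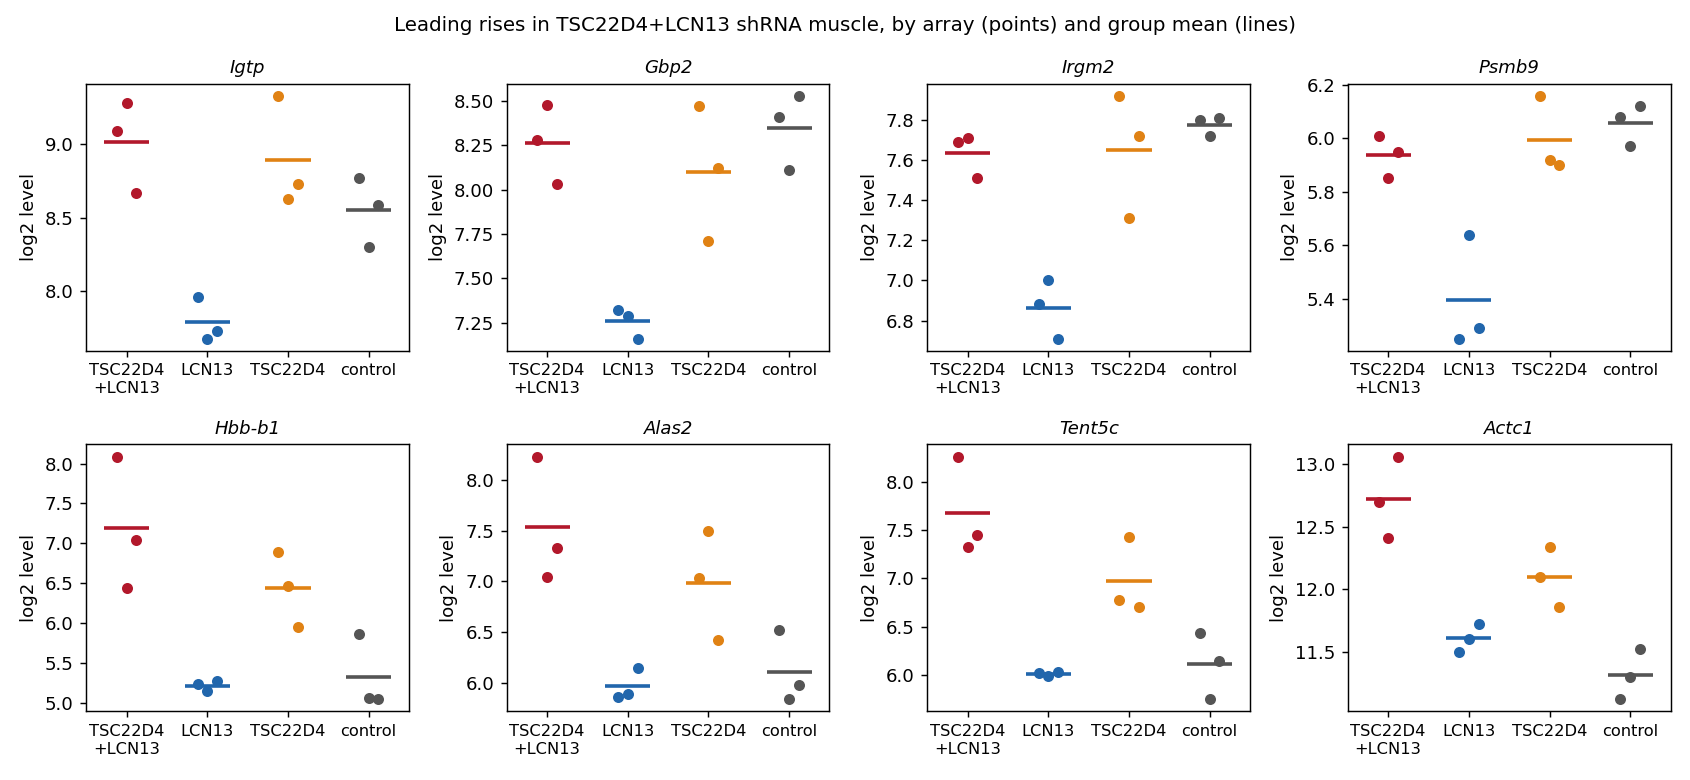
Log2 level of 8 genes that rose, per array (points) with the group mean (lines), in the order TSC22D4+LCN13, LCN13, TSC22D4 and control, with axes that do not start at 0. The TSC22D4+LCN13 arrays lay above the LCN13 arrays for each gene, from 1.46-fold for Psmb9 to 3.94-fold for Hbb-b1.

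Most macrophage markers did not pass, and 1 animal stood above the rest. Of 30 listed genes 2 rose, 28 did not pass, 22 differences were above 0 and the median was 0.22. An unadjusted limma p below 0.05 was found for 15 of the 30, beside 20.9% of all genes. Of the 30, 10 lay higher in every TSC22D4+LCN13 array than in any LCN13 array and 2 lay lower, beside 9.14% and 13.4% of all genes. Adgre1, a surface receptor that marks tissue macrophages, measured 6.08, 6.57 and 6.31 in TSC22D4+LCN13 arrays against 5.96, 5.79 and 5.80 in LCN13 arrays (log2 difference 0.47, adjusted p = 0.0472). Ccr2, the receptor that draws monocytes into tissue, rose by 0.20 on the log2 scale (limma adjusted p = 0.0249). Its levels were low, at 5.45, 5.55 and 5.41 in TSC22D4+LCN13 arrays and 5.30, 5.22 and 5.28 in LCN13 arrays. The median level of all genes was 5.49. Cd68 measured 7.71, 8.88 and 7.38 in TSC22D4+LCN13 arrays against 7.98, 7.22 and 7.29 in LCN13 arrays, so the groups overlapped and animal 30 stood above the rest. Without that animal 1 of the 30 genes rose, Adgre1 did not pass (limma adjusted p = 0.0607), and the median was 0.08. Of the 12 fits that leave out 1 array, Adgre1 passed in 1 and Ccr2 in 8. Outside the list, Wfdc17, a secreted protein of activated macrophages, measured 7.14, 7.71 and 6.99 in TSC22D4+LCN13 arrays against 6.54, 5.88 and 6.27 in LCN13 arrays (2.07-fold higher, adjusted p = 0.0208). Cbr2, a carbonyl reductase, measured 9.13, 9.66 and 9.34 in TSC22D4+LCN13 arrays against 8.42, 8.20 and 8.56 in LCN13 arrays (1.98-fold higher, adjusted p = 0.00892). Both had their highest value in animal 30 and did not overlap between groups.

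Ighm, the constant region of the IgM heavy chain, was the 1 of 32 listed lymphocyte, granulocyte and mast cell markers to pass, and it was higher. It measured 11.03, 11.18 and 11.18 in TSC22D4+LCN13 arrays and 10.42, 9.55 and 9.70 in LCN13 arrays, and rose 2.36-fold without overlap (adjusted p = 0.0199). Igkc, the constant region of the kappa light chain, had the largest difference of the list but did not pass (log2 difference 1.67, adjusted p = 0.346). It measured 6.58, 10.73 and 9.27 in TSC22D4+LCN13 arrays and 7.21, 6.94 and 7.42 in LCN13 arrays, so the groups overlapped, and without animal 30 the difference was 0.74. The list median was 0.02. Of the 32 genes 7, Ighm among them, lay higher in every TSC22D4+LCN13 array than in any LCN13 array. Another 2 lay lower, and the shares for all genes were 9.14% higher and 13.4% lower. Cd79a, of the B cell receptor, and Ms4a1, a surface marker of B cells, lay at 5.18 or below in the 6 arrays. Gene segments of immunoglobulins and T cell receptors went the other way where they passed, with 1 higher and 12 lower of 338. Trdj1, a joining segment, measured 7.87 to 8.26 in TSC22D4+LCN13 arrays against 8.75 to 9.17 in LCN13 arrays (log2 difference -0.89, adjusted p = 0.00787). Ighv11-2, a variable segment, fell by 0.79 (adjusted p = 0.00787). Joining and variable segments are short, belong to families of close copies and are little transcribed in muscle, and their share called, 3.85%, was near the 4.21% of all genes.

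Liver transcripts varied within groups. By limma 0 of 26 listed hepatocyte markers passed, and 4 had an unadjusted p below 0.05, beside 20.9% of all genes. Of the 26 differences 23 were below 0, and the list median was -0.25. Alb, the albumin gene, measured 8.22, 10.87 and 7.01 in TSC22D4+LCN13 arrays against 9.07, 11.57 and 10.94 in LCN13 arrays, and the groups overlapped (log2 difference -1.83, adjusted p = 0.384). Without animal 30 the difference of Alb was -2.91 and without animal 32 it was -0.98, neither past the threshold. Without animal 30 the list had 1 gene lower, Rbp4, 25 differences below 0 and a median of -0.39. Bhmt, an enzyme of betaine and homocysteine metabolism that is abundant in liver, belongs to no list and fell. It measured 6.18, 6.72 and 6.20 in TSC22D4+LCN13 arrays against 7.29, 7.19 and 7.26 in LCN13 arrays, without overlap (log2 difference -0.88, SE 0.121, adjusted p = 0.0082). The part of liver RNA in this fall was not tested.

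Contractile genes of early muscle moved in both directions. Actc1, the cardiac actin that skeletal muscle makes before birth and during regeneration, measured 12.70, 12.41 and 13.06 in TSC22D4+LCN13 arrays and 11.50, 11.60 and 11.72 in LCN13 arrays. It rose 2.18-fold without overlap (log2 difference 1.12, SE 0.174, adjusted p = 0.0114). Mybph, a myosin binding protein, rose by 0.37 (adjusted p = 0.0455). Myl4, an embryonic myosin light chain, fell by 0.43 (adjusted p = 0.0227), and Cdh15, the cadherin of satellite cells and myoblasts, fell by 0.27 (adjusted p = 0.0205). The remaining 18 of 22 genes of the list did not pass and its median was -0.06. By limma 0 genes passed among 18 of fast fibres, 16 of slow fibres, 23 of the neuromuscular junction and 21 of calcium handling. An unadjusted p below 0.05 was found for 2, 1, 5 and 3 of them, in that order, beside 20.9% of all genes. Without animal 30, Ache of the junction list and Jph2 of the calcium list were higher and passed.

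Of 31 genes of atrophy and FoxO signalling 1 passed. Trim63, the ubiquitin ligase MuRF1 that marks myofibre proteins for breakdown, measured 10.71, 10.76 and 10.69 in TSC22D4+LCN13 arrays against 9.87, 10.25 and 10.18 in LCN13 arrays. It rose 1.54-fold without overlap (adjusted p = 0.0261), and control arrays lay at 10.71 to 11.08. Mettl21e, a methyltransferase of muscle, measured 9.16, 8.79 and 9.29 in TSC22D4+LCN13 arrays against 8.31, 7.94 and 8.39 in LCN13 arrays (1.82-fold higher, adjusted p = 0.0358).

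Few genes passed in each metabolic list. In the citric acid cycle list Pcx, pyruvate carboxylase, which supplies oxaloacetate, rose 1.47-fold (adjusted p = 0.0186), and Cs, citrate synthase, rose 1.20-fold (adjusted p = 0.0434), 2 of 30 members. Pcx measured 8.22, 8.26 and 8.35 in TSC22D4+LCN13 arrays against 7.85, 7.74 and 7.57 in LCN13 arrays, with 8.30 to 8.60 in control arrays. Of 48 genes of oxidative phosphorylation 1 rose and 3 fell: Atp5o, of the ATP synthase stalk, rose by 0.50 (adjusted p = 0.0416), while Cox6c, of cytochrome c oxidase, fell by 0.42 (adjusted p = 0.0235), Ndufa2, of complex I, by 0.27 (adjusted p = 0.0358) and Atp5c1, of the ATP synthase rotor, by 0.29 (adjusted p = 0.0429). The list median was 0.03. Mlycd, which breaks down malonyl-CoA and so relieves its block on fatty acid entry into mitochondria, was the 1 of 35 fatty acid oxidation genes to pass and fell by 0.37 (adjusted p = 0.0114). Pgk1, of glycolysis, fell by 0.37 (adjusted p = 0.0311). In the insulin signalling list of 36 genes only Pdpk1, the kinase PDK1 that activates AKT, passed, and it fell by 0.24 (adjusted p = 0.0358). Pdpk1 measured 10.27, 10.22 and 10.21 in TSC22D4+LCN13 arrays against 10.58, 10.45 and 10.38 in LCN13 arrays, and it passed in 3 of the 12 fits that leave out 1 array. Tbc1d4, which holds glucose transporters inside the cell until AKT acts on it, had a log2 difference of -0.56 (adjusted p = 0.0776), and Slc2a4, the transporter GLUT4, one of 0.16 (adjusted p = 0.0786). Without animal 30 Pdpk1 did not pass (adjusted p = 0.0612), while Slc2a4 did (log2 difference 0.20, adjusted p = 0.0436). Both Tbc1d4 and Slc2a4 were chosen for mention after their values were seen. Without animal 30 Atp5c1 and Pgk1 did not pass either (adjusted p = 0.065 and 0.0505). In that fit 4 fatty acid oxidation genes were lower (Cd36, Fabp4, Acot2 and Mlycd) and 3 citric acid cycle genes higher (Cs, Fh1 and Pcx). Of the 12 fits that leave out 1 array, Cs and Atp5o each passed in 1, Atp5c1 in 2, Ndufa2 in 4, Pgk1 in 7, Cox6c in 8, Pcx in 11 and Mlycd in 12.

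**Figure D3:**
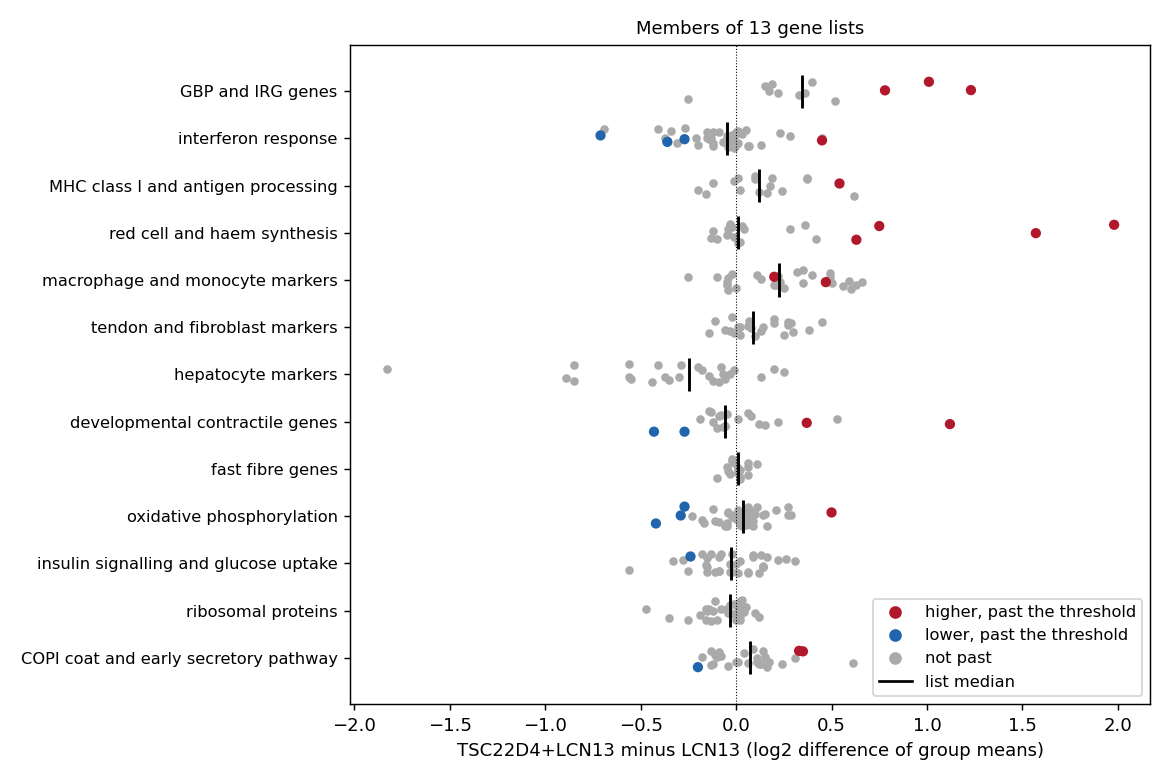
Log2 difference of group means, TSC22D4+LCN13 minus LCN13, for each member of 13 gene lists, with members past the threshold in red (higher) or blue (lower), the rest in grey and the list median as a bar. Most members lay close to 0, and the list medians ran from -0.25 for hepatocyte markers to 0.34 for GBP and IRG genes.

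Over 47 lists with 1255 genes, 37 genes were higher and 22 lower, 4.7% beside 4.21% of all genes. No gene passed in 17 of the lists, including collagens, tendon and adipocyte markers, ribosomal proteins and the TSC22 family. Without animal 30 no gene passed in 8 lists, and 50 list entries were higher and 37 lower. Of the lists just named, only the tendon markers still had none in that fit. Col18a1 of the collagens, Fabp4 and Pparg of the adipocyte markers, Rpl8 of the ribosomal proteins and Nrbp1 of the TSC22 list then passed as lower. In the list of the COPI coat and early secretory pathway 2 of 28 genes rose and 1 fell. Copz1 and Copz2, subunits of the COPI coat, rose by 0.35 (adjusted p = 0.027) and 0.33 (adjusted p = 0.00633), while Arcn1, another subunit of that coat, fell by 0.20 (adjusted p = 0.0401). Of 41 autophagy and lysosome genes 3 rose. Atp6v1a, a subunit of the proton pump that acidifies lysosomes, rose by 0.45 (adjusted p = 0.0113), and Ppt1, a lysosomal thioesterase, by 0.20 (adjusted p = 0.0268). Mrps25 and Mrps18b, of the mitochondrial ribosome, rose by 0.58 (adjusted p = 0.0322) and 0.31 (adjusted p = 0.0134). Among stress response genes Pdia6, a disulfide isomerase, rose by 0.40 (adjusted p = 0.0127), and Atf4, the transcription factor of the integrated stress response, fell by 0.28 (adjusted p = 0.00785). Junb, an immediate early gene, fell by 0.48 (adjusted p = 0.0322).

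Small nucleolar and Cajal body RNAs, which guide methylation and pseudouridylation of ribosomal and spliceosomal RNA, held the largest falls. Snora16a measured 7.52, 8.42 and 7.40 in TSC22D4+LCN13 arrays and 10.32, 9.38 and 9.63 in LCN13 arrays. It was 4.00-fold lower without overlap (SE 0.416 on the log2 scale, adjusted p = 0.0319). Snora17 measured 9.76, 10.25 and 10.12 in TSC22D4+LCN13 arrays against 12.00, 11.16 and 11.41 in LCN13 arrays (log2 difference -1.48, adjusted p = 0.0177). Animal 21 was the highest LCN13 array for both. Snord13 fell by 1.52 (adjusted p = 0.027), Scarna13 by 1.15 (adjusted p = 0.038) and Snora73a by 0.95 (adjusted p = 0.014). Scarna13 measured 9.66, 10.29 and 9.69 in TSC22D4+LCN13 arrays against 11.22, 10.71 and 11.16 in LCN13 arrays. Of 107 such genes, a group chosen after values were seen, 2 rose and 9 fell, 10.3% beside 4.21% of all genes, and the median difference was 0.02. Snora31 and Scarna6, with log2 differences of -2.09 and -2.41, did not pass (adjusted p = 0.0527 and 0.167). In animal 30 Snora31 stood at 8.53, nearer the LCN13 arrays at 8.86 to 9.34 than animals 29 and 32 at 6.09 and 6.56, and without animal 30 Snora31 was lower by -2.82 on the log2 scale (adjusted p = 0.0025). Terc, the RNA template of telomerase, moved the other way and rose 1.59-fold (adjusted p = 0.0103).

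Other falls included Pop5, a subunit of RNase P and RNase MRP, at 8.90, 9.25 and 8.84 in TSC22D4+LCN13 arrays against 9.93, 9.50 and 9.74 in LCN13 arrays (log2 difference -0.73, adjusted p = 0.0138). Snhg3, a host gene of small nucleolar RNAs, fell by 0.32 (adjusted p = 0.00966). Mir1954 fell by 0.80 (limma adjusted p = 0.00549). Of 538 microRNA genes 3 rose and 14 fell, 3.16% beside 4.21% of all genes. The array measures primary or precursor transcripts of such genes and not mature microRNA.

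Cdv3, chosen for mention after its values were seen, was 7.71, 7.60 and 7.62 in TSC22D4+LCN13 arrays against 8.10, 8.10 and 8.16 in LCN13 arrays, with 7.70 to 7.84 in TSC22D4 arrays and 8.07 to 8.17 in control arrays. It fell by 0.47 (adjusted p = 0.00338), and each array with TSC22D4 virus lay below each array without it.

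The same exchange of TSC22D4 for control virus without LCN13 virus was read from the TSC22D4 and control arrays. These enter the present comparison only through the spread estimated from all 4 groups, so the calls of both comparisons share that spread. The exchange without LCN13 virus called 78 genes, 0.336%, of which 12 were higher (0.0518%) and 66 lower (0.285%). The TSC22D4 mean lay below the control mean for 555 of the 672 falls, 82.6% beside 51.7% of all genes, and above it for 240 of the 305 rises, 78.7% beside 48.3%. Of the genes that fell, 9 also fell without LCN13 virus, among them Cdv3, Oasl2, Adar, Eif2s2, a subunit of translation factor eIF2, and Scarna13. Of the genes that rose, 6 also rose, namely Copz1, Copz2, Yif1b, Mrps18b, Ppt1 and Ggcx, the vitamin K-dependent carboxylase. Ppt1 rose by 0.47 there (adjusted p = 0.000805), and Yif1b, of transport from the endoplasmic reticulum, by 0.27 there and by 0.29 with LCN13 virus. Dtx3l was called in opposite directions, with a log2 difference of -0.76 without LCN13 virus (adjusted p = 0.0148). Genes outside the naming rule in this paragraph were chosen after their values were seen.

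**Figure D4:**
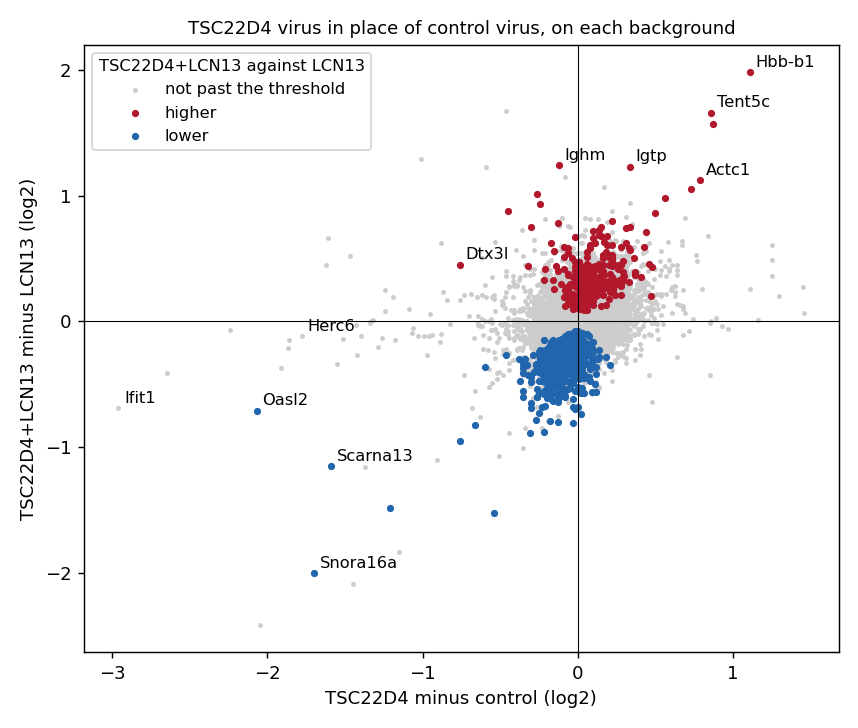
Log2 difference of each gene after TSC22D4 virus in place of control virus, with LCN13 virus (vertical axis, TSC22D4+LCN13 minus LCN13) and without it (horizontal axis, TSC22D4 minus control). Red and blue points passed the test on the vertical axis (305 higher and 672 lower), and Ifit1 at -2.96 without LCN13 virus and -0.69 with it lies far to the left.

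The difference between these 2 responses was tested as an interaction, which called 29 genes, 0.125%, of which 24 were higher with LCN13 virus (0.104%) and 5 lower (0.0216%). Type I interferon genes with the smallest p were low in every array with a target virus and high in control arrays. Herc6, the ligase that attaches ISG15 in mice, measured 6.75, 6.78 and 6.64 in TSC22D4+LCN13 arrays and 6.77, 6.87 and 6.90 in LCN13 arrays, which overlapped, while TSC22D4 arrays lay at 6.73 to 6.87 and control arrays at 8.42 to 8.73. Its interaction was 1.66 (limma adjusted p = 0.000697). Parp14, Sp100, Tor3a and Znfx1 were also highest in control arrays, with differences of 0.01, -0.13, 0.17 and -0.11 with LCN13 virus, none past the threshold. TSC22D4+LCN13 and LCN13 arrays overlapped for Parp14 and Sp100. Tor3a lay higher and Znfx1 lower in every TSC22D4+LCN13 array than in any LCN13 array. Among genes that changed in TSC22D4+LCN13 muscle, 9 also passed the interaction, 4 of them higher in it: Oasl2, Dtx3l, Isg20 and Mylip, a ubiquitin ligase for the LDL receptor. The other 5, lower in both tests, were Med13, of the Mediator complex, Kcnk15, a potassium channel, Tas1r1, a taste receptor subunit, and the unnamed transcripts A930016O22Rik and 4930431P03Rik. Med13 measured 10.45, 10.47 and 10.48 in TSC22D4+LCN13 arrays against 10.79, 10.79 and 10.72 in LCN13 arrays and fell by 0.30 (adjusted p = 0.00269). In TSC22D4 and control arrays Med13 lay at 10.63 to 10.67, between the groups.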

How the data were processed

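Total RNA of gastrocnemius had been hybridised to 1-colour Affymetrix arrays, 3 per group. The deposited table holds log2 levels of 25206 probe sets, made by the authors with RMA, per the submitters' processing notes. RMA corrects background, makes array distributions equal and summarises probes as log2, so a shift of most genes one way would not be seen. The RMA version, probe set definitions, genome build, scan dates and batches were not given in the sources used here. Probe sets with 1 gene symbol in the platform annotation, 23185, were tested, and the other 2021 (8.02%) entered only an alternative. Arrays correlated at 0.990 to 0.998, and their number limits the precision.

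All 12 arrays were fitted with 4 group means with limma 3.58.1 (lmFit, eBayes) under R 4.3.3 (8 residual and 1.69 prior degrees of freedom). Tests were two-sided, with Benjamini-Hochberg adjustment over 23185 genes and a threshold of 0.05. No filter on dim probe sets was used. The steps were tested on simulated data. The rule for named genes took both targets, the 15 largest rises and falls, list members past the threshold (the 4 smallest p of longer sets), up to 2 of a list with none, and the 5 smallest interaction p, without predicted genes. The text names a subset of these and some genes outside the rule, both picked with their values known. The genes, the 47 lists and the tests were chosen with earlier results of these data known. Promoters came from RefSeq, build GRCm38.p6. Alternatives were all probe sets, brighter genes, trend and robust options, quantile normalization, median centring, array weights, the compared arrays alone, a size minimum and each array left out.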

Additional observations from a re-analysis of the deposited data

Results flagged for a closer look

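The response to TSC22D4 virus in place of control virus differed by a limma test between the LCN13 background and the control background for 29 genes. The values below are the log2 response with LCN13 virus (TSC22D4+LCN13 minus LCN13) minus the log2 response without it (TSC22D4 minus control). Interferon-induced genes had positive values. Ifit1 stood at 2.28, Herc6 at 1.66, Oasl2 at 1.36, Parp14 at 1.33, Dtx3l at 1.22, Isg20 at 1.17, Sp100 at 1.12, Tor3a at 0.93 and Znfx1 at 0.82. Mylip, a ubiquitin ligase for the LDL receptor, stood at 0.77. The values were below 0 for A930016O22Rik at -0.52, 4930431P03Rik and Kcnk15 at -0.33 each, Med13 at -0.28 and Tas1r1 at -0.27. For Ifit1 the response was -0.69 with LCN13 virus and -2.96 without it, while for Med13 it was -0.30 with LCN13 virus and -0.02 without it.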

How the results depend on the processing

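The count of 977 genes (305 higher, 672 lower) ranged from 802 to 1058 with all probe sets, brighter genes, trend and robust options, quantile normalization or median centring. Array weights gave 543 genes (155 higher, 388 lower), and the 6 compared arrays alone gave 0 by limma (3833 at an unadjusted p below 0.05). A minimum log2 difference of 1 left 12 (8 higher, 4 lower). Leaving out 1 array gave 318 (without LCN13 animal 21) to 1320 genes (without TSC22D4+LCN13 animal 30), 89 to 551 higher and 229 to 769 lower. The count fell to 391 without TSC22D4+LCN13 animal 32, 468 without 29, 563 without LCN13 animal 23 and 567 without 22. Of the 67 genes named in the text that passed, 28 also passed in all 12 such fits, and 0 changed direction. With array weights 48 of the 67 passed. The 78 genes of TSC22D4 against control became 177 with array weights, 33 in their 6 arrays alone and 25 with the minimum, and 36 to 105 with 1 array left out. The 29 interaction genes became 51 among brighter genes and 18 with the minimum, and 3 to 50 with 1 array left out. Tsc22d4, with a difference of 0.00, had -0.00 with quantile normalization, median centring and array weights, and without 1 array it ran from -0.10 to 0.10. Without 1 array Obp2a ran from -0.00 to 0.03 and Parp14 from -0.10 to 0.09, so their signs changed too. The cause of these moves was not tested beyond the fewer arrays or genes in each fit. No paired analysis was possible because the animal numbers differ between groups. Genes near the floor were called rarely, 0.242% among the 5797 dimmest genes and 6.88% among the 5796 brightest.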
